A study of Mus musculus with 8 samples.

Results

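Unknown.488p is 1 of 20 cell clusters that the authors named in a single-cell RNA sequencing study of the mouse dorsal root ganglion, the structure that houses the cell bodies of sensory neurons. Its members here are the genes given for it in the authors' deposited table of cluster markers, in which each cluster is set against all other cells. That rule gave 4595 genes, out of 56694 pairs of gene and cluster and 9229 different genes in the whole table. The cluster's name says neither what the cells are nor what 488p stands for.

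Ganglia came from C57BL/6 mice of 21 to 30 days, with 4 mice pooled per sample, and no other allele or agent is named in the labels. For every sample a first digestion of 20 min and a second of 15 min are given. The dissociated living cells of both groups were exposed for 30 min to an antibody against proteasome subunit β5 (gene Psmb5) and for 40 min to a fluorescent second antibody, which marks cells with proteasomes exposed at their surface (the neuronal membrane proteasome, NMP). Flow sorting then split them into NMP-positive cells and NMP-negative cells. There are 4 samples of each sort, and their descriptions name 4 sequencing lanes of 1 library per population, so neither population had a replicate. The table carries no sample, so no value of the cluster could be assigned to NMP-positive or NMP-negative cells. The labels call all cells somatosensory neurons, and the extraction text mentions nuclei isolation, so it is not clear whether whole cells or nuclei were sequenced.

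Macrophages are phagocytes that reside in most tissues, where they engulf debris, present antigen and release cytokines and chemokines. In the dorsal root ganglion they lie around blood vessels and around the cell bodies of neurons, and in mice their numbers change after nerve injury. They are recognised by the colony-stimulating factor receptor gene Csf1r, by lysozyme (Lyz2), by chains of the complement component C1q and by adaptors of activating receptors such as Tyrobp and Fcer1g. Antigen-presenting macrophages also carry MHC class II molecules with their invariant chain Cd74.

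The 4 genes used to mark the cells were all abundant in the cluster. Unless a value is said to be computed, log2 fold changes (cluster over all other cells), adjusted p-values and percentages of cells with a gene detected are those of the authors' deposited table. Lyz2 was detected in 91.1% of Unknown.488p cells and in 1.4% of other cells, with a log2 fold change of 5.84. Cxcl2, a chemokine that attracts neutrophils, was detected in 80.1% and 1.6% (6.02). C1qa, a chain of C1q, was detected in 67.8% and 0.3% (4.85), and Cd74 in 48.6% and 1.5% (5.72). All 4 were thus detected in at most 1.6% of all other cells, and Cd74 was detected in the fewest of the cluster's cells. Since clusters are built from expression, these values describe the cluster and test nothing. No number of cells and no depth per cell is given, so percentages carry no interval, and a low percentage in the cluster cannot be read as absence of expression.

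Promoters are shown for Cxcl2 and Lyz2, which are among the genes that mark the cluster, and for the neighbouring C1q chain genes C1qc and C1qb. In macrophages, promoters are often bound by PU.1 (gene Spi1), the lineage factor of myeloid cells, and by NF-κB. Each sequence runs 5′ to 3′ on the gene's strand, from 250 bases before to 50 bases after the start site, and comes from RefSeq (GRCm38.p6). Capitals mark matches, on either strand, to GAGGAAGT for PU.1 or to GGANTTTCC for NF-κB. The searches also covered TGANTCA for AP-1. Cxcl2 lies at chr5:90903649-90903948 (+ strand), Lyz2 at chr10:117282223-117282522 (- strand), C1qc at chr4:136892865-136893164 (- strand) and C1qb at chr4:136886151-136886450 (- strand).
Cxcl2: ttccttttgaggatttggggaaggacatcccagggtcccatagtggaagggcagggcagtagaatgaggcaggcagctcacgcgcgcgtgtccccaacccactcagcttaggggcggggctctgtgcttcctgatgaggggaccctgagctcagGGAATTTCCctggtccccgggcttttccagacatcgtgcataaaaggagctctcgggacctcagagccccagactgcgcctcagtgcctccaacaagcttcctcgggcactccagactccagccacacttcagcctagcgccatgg
Lyz2: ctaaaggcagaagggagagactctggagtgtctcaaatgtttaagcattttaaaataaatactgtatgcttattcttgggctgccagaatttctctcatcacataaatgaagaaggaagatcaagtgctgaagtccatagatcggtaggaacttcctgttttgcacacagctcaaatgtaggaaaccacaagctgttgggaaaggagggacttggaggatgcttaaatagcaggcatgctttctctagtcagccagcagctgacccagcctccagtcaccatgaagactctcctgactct
C1qc: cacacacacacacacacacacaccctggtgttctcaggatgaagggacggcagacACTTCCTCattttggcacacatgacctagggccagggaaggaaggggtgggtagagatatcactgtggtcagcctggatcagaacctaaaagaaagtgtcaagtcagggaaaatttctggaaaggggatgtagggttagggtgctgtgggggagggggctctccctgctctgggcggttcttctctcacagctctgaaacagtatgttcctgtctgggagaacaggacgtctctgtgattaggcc
C1qb: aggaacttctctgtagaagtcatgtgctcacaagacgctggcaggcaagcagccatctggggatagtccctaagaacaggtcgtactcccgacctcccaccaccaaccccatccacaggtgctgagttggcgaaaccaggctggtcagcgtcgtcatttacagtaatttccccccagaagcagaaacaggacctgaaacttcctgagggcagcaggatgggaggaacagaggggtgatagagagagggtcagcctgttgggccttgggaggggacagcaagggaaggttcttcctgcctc

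The Cxcl2 window held an NF-κB match that begins 96 bases before the start site. The window of C1qc held a PU.1 match beginning 195 bases before it, and the windows of Lyz2 and C1qb held no match to any of the 3 motifs. Of 3 further genes read in the same way, S100a8 had a PU.1 match and S100a9 and Fcer1g had none of the 3. Of 711 promoters of genes higher in the cluster, 65 (9.14%) held the PU.1 letters, against 887 of all 27025 promoters (3.28%), 209 of the 7147 promoters of genes in the table (2.92%) and 47 of the 2380 promoters of genes lower in the cluster (1.97%). The NF-κB letters were in 3.66% of the promoters of higher genes, in 1.23% of all promoters, in 1.48% of those of genes in the table and in 1.13% of those of lower genes. The AP-1 letters were in 8.72% of the promoters of higher genes, in 7.93% of all promoters, in 4.86% of those of genes in the table and in 4.12% of those of lower genes. These are counts of letters in 1 window per gene and do not show binding.

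Genes with a deposited adjusted p under 0.05 were called higher where the log2 fold change was above 0 and lower where it was below. By this filter 915 genes were higher, which is 9.91% of the 9229 genes of the table, and 3042 were lower, which is 33.0%. The remaining 638 listed genes did not pass it, 331 with a log2 fold change above 0 and 307 below. At the edge of the filter, Nr3c2 was just inside (adjusted p = 0.0491 in the authors' deposited table, log2 fold change -0.35) and Sh2d3c just outside (0.0515, 0.38). Median log2 fold changes were 1.01 for the higher and -0.54 for the lower genes. Another 4634 genes had no value for the cluster; the table holds no log2 fold change under 0.25 in size and no gene detected in under 10% of both the cluster and the other cells. The p-values count cells as units on the genes that formed the clusters, so they serve as a filter only.

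The higher genes covered a wide range of detection. Their median detection was 46.6% of Unknown.488p cells and 11.3% of other cells, and their log2 fold change was at least 2 for 112 of them. The median log2 fold change of all 4595 listed genes was -0.40. Of the 915, 41 were detected in at least 90% of the cluster's cells, 153 in at least 75% and 224 in under 25%. A group of 191 were detected in at most 1% of other cells. For 484 of the 915 (52.9%) the cluster had the largest detected share of any cluster for which the table gives the gene. These include 323 (35.3% of the 915) that were given for no other cluster, for which this holds by default. Being given for no other cluster does not mean absence there, as Csf2ra, given for Unknown.488p alone, was detected in 25.2% of other cells.

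**Figure D1:**
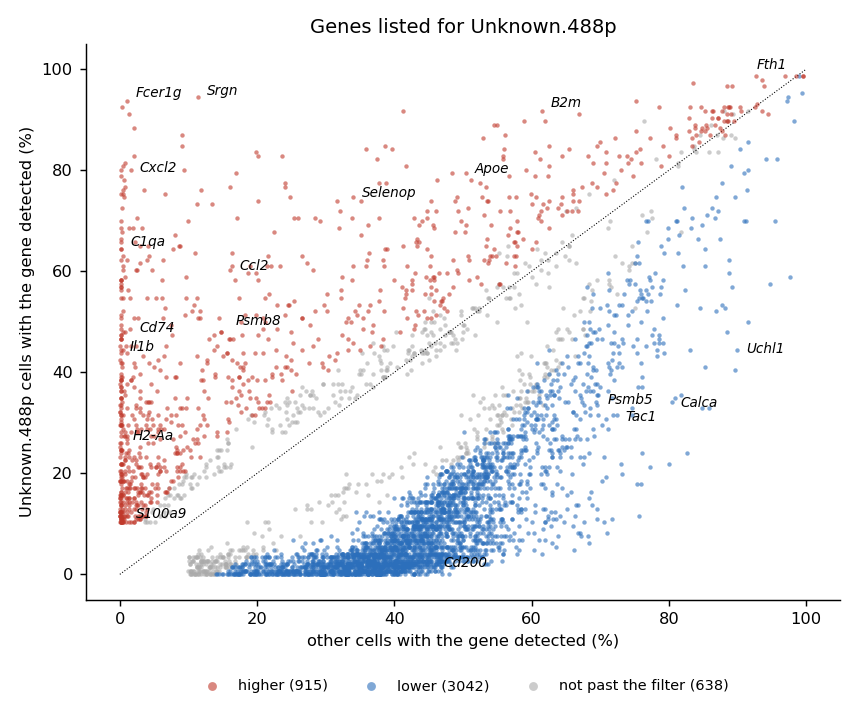
Percentage of Unknown.488p cells (vertical axis) and of all other cells (horizontal axis) with each of the 4595 listed genes detected; points are genes, coloured by direction, and the dotted line marks equal percentages. Part of the higher genes stand along the left edge, where Fcer1g is at 93.8% of Unknown.488p cells and 1.0% of other cells. Others lie further right, such as B2m at 91.8% and 61.5%. No lower gene lies above the dotted line, and Calca is at 34.2% and 80.4%.

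The cluster's share of all cells follows from the percentages, since the overall share of cells with a gene must be the same whichever cluster it is computed from. Solved by least squares over 6748 genes, Unknown.488p held 1.86% of all cells, the 17th largest of the 20 clusters. From this share, the part of all cells with a given transcript that lay in Unknown.488p was computed for each gene. For C1qc it was 86.6% (83.8 to 89.6% within the rounding of the table), for Tyrobp 85.4% (83.3 to 87.5%), for Spi1 88.2% (85.6 to 90.9%) and for Cd86 93.4% (90.5 to 96.6%). For Lyz2 it was 55.2% and for Cxcl2 48.7%, although both had larger fold changes. The median over the 915 higher genes was 5.60%, and 150 of them had at least 50% of their detecting cells in the cluster. The computed shares thus set apart a block of genes found mostly in these cells from a larger number that other cells carried as well.

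Genes of macrophages in general were higher almost throughout. Of 16 genes of the macrophage list, which includes the 4 markers, 15 were higher and none was lower. The shares over all genes in the table were 9.91% and 33.0%. The median log2 fold change was 3.09 over the listed members (-0.40 over all listed genes). Mertk, a receptor for dying cells, had no value. In the authors' deposited table Csf1r was detected in 76.7% of Unknown.488p cells and 0.8% of other cells (log2 fold change 3.06). Ptprc, the phosphatase CD45 found on all leukocytes, was detected in 80.8% and 0.4% (3.23), and Laptm5, a lysosomal membrane protein of blood cells, in 88.4% and 2.1% (3.09). The surface receptor Adgre1, the F4/80 antigen of mouse macrophages, was detected in 56.8% and 0.2% (1.83), and the integrin Itgam in 38.4% and 1.7% (1.50). The listed members ranged from 34.9 to 92.5% of Unknown.488p cells, and none of these 15 exceeded 6.8% of other cells.

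Genes of tissue-resident macrophages were also frequent. Of 12, 9 were higher and none was lower, beside 9.91% and 33.0% of all genes in the table (median log2 fold change of those listed 1.67). In the authors' deposited table the mannose receptor Mrc1 was detected in 68.5% of Unknown.488p cells and 1.9% of other cells (3.79), the haemoglobin scavenger receptor Cd163 in 39.7% and 0.1% (1.81), the coagulation factor F13a1 in 54.8% and 4.0% (2.74) and the platelet factor chemokine Pf4 in 61.0% and 0.4% (4.59). Folr2, a folate receptor, was detected in 10.3% and 0.1% (0.59). Lyve1 and Timd4, which mark subsets of resident macrophages, were not in the table for any cluster. Of 10 genes of the microglia list 5 were higher, with Trem2, a lipid-sensing receptor, at 36.3% and 0.2% (1.47) and P2ry12, the ADP receptor, at 15.8% and 5.4% (0.51), while Sparc was lower (6.2% and 35.9%, -2.75). Tmem119 had no value for the cluster and Sall1 and Siglech none for any.

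Markers of other leukocytes were present in a minority of the cells or had no value. For comparison, 9.91% of all genes in the table were higher. Of 10 monocyte genes 3 were higher in the authors' deposited table: Ccr2, the receptor that draws monocytes into tissue, in 24.7% of Unknown.488p cells and 0.1% of other cells (1.48), Plac8 in 13% and 0.3% (1.92), and Itgal in 10.3% and 0.5% (0.51). Of 9 neutrophil genes 2 were higher, S100a9 (11.6% and 1.0%) and S100a8 (13% and 0.7%), which code for the subunits of calprotectin; Ly6g, Retnlg, Mmp8, Mmp9, Cxcr2 and Ltf were in the table for no cluster. Of 9 dendritic cell genes 1 was higher, the lectin Clec10a (15.8% and 0.1%, 0.68), and Flt3, Xcr1, Clec9a and Ccr7 were in the table for no cluster. Of 7 mast cell genes 1 was higher (Hdc, 10.3% and 1.6%, 0.97), and of 8 B cell genes 1 (Ighm, 27.4% and 8.7%, 0.75), while Cd79b and Ms4a1 were in the table for no cluster. None of the 10 T and NK cell genes was in the table. None of the 5 red blood cell genes had a value for Unknown.488p. Whether these transcripts were in the same cells as the macrophage genes cannot be told from percentages.

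**Figure D2:**
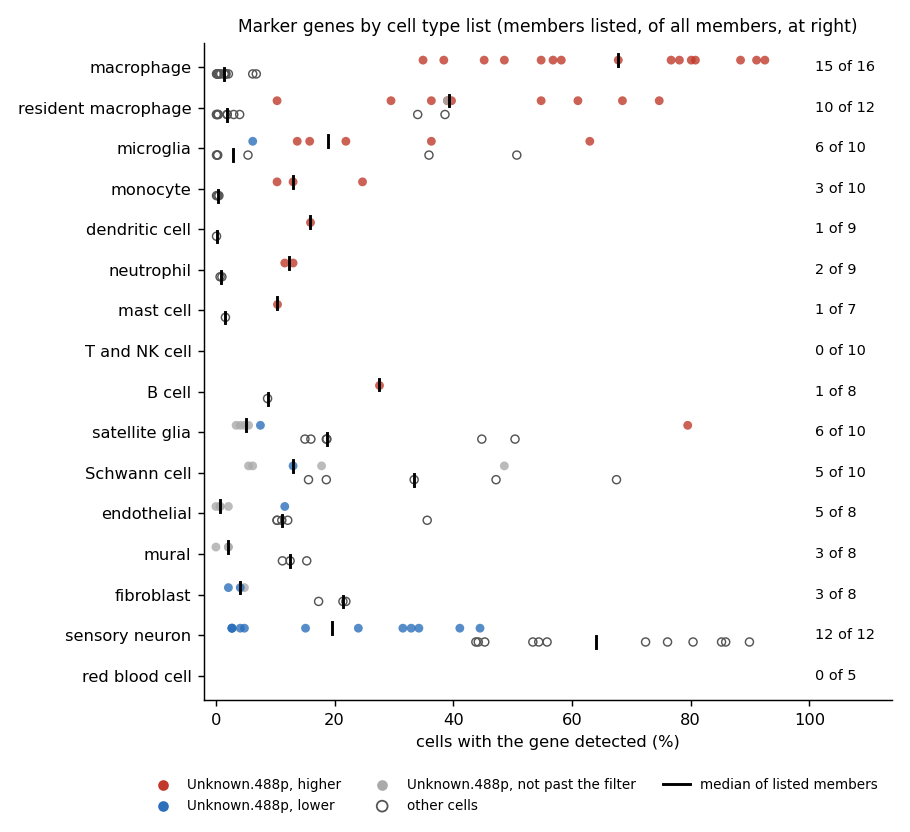
Percentage of cells in which each listed member of the 16 cell type lists was detected, in Unknown.488p (filled points, upper line of each list) and in all other cells (open points, lower line); bars mark medians over listed members. Macrophage genes reach 92.5% of Unknown.488p cells and at most 6.8% of other cells, while sensory neuron genes lie between 2.7 and 44.5% of Unknown.488p cells and between 43.8 and 89.9% of other cells.

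The genes of neighbouring ganglion cells, apart from neurons, had few members past the filter, and 22 of the 44 had no value for Unknown.488p. All 12 sensory neuron genes were lower (median -2.47), from -4.00 for Calca, the gene of the peptide CGRP, to -0.96 for the splicing factor Rbfox3 in the authors' deposited table. Of the fibroblast list 2 of 8 were lower (Dcn, -3.10 and Apod, -3.35), of the endothelial list 1 of 8 (Egfl7, -0.58), of the Schwann cell list 1 of 10 (Cnp, -0.77) and of the mural list none of 8, and no member of these 4 lists was higher. Of all genes in the table, 33.0% were lower. Of the satellite glia list Aldoc was lower (-0.81), and Apoe, a lipid carrier that macrophages also make, was higher (79.5% of Unknown.488p cells and 50.4% of other cells, 1.74). Several endothelial and mural genes were at or near 0 in the cluster, with Emcn and Pdgfrb listed at 0.0% and Cdh5 and Ly6c1 at 0.7%.

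Neuronal transcripts were nevertheless found in part of the cells. In the authors' deposited table Calca was detected in 34.2% of Unknown.488p cells and Tac1, which encodes substance P, in 31.5%. Both were the lowest percentages among the 7 clusters named Unknown, where the other 6 lay between 52.1 and 61.0% for Calca and between 39.5 and 47.2% for Tac1. Uchl1 was detected in 44.5% and Stmn2 in 41.1%, against 4.1% for the sodium channel Scn9a and 2.7% for Scn10a. Their part in the results was not tested.

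The very largest fold changes belonged to genes found in a minority of the cells. S100a9 (log2 fold change 6.61) and S100a8 (6.15) had the largest of all 915 higher genes in the authors' deposited table, although detected in 11.6% and 13% of Unknown.488p cells. Next stood Cxcl2 (6.02), Lyz2 (5.84) and Cd74 (5.72), detected in 80.1, 91.1 and 48.6% of Unknown.488p cells. Among genes found in nearly all cells, the proteoglycan Srgn was detected in 94.5% of Unknown.488p cells and 11.4% of other cells (3.82), Fcer1g in 93.8% and 1.0% (4.25) and Tyrobp in 92.5% and 0.3% (4.22). An average over the cluster does not separate a high level in few cells from a moderate level in many.

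**Figure D3:**
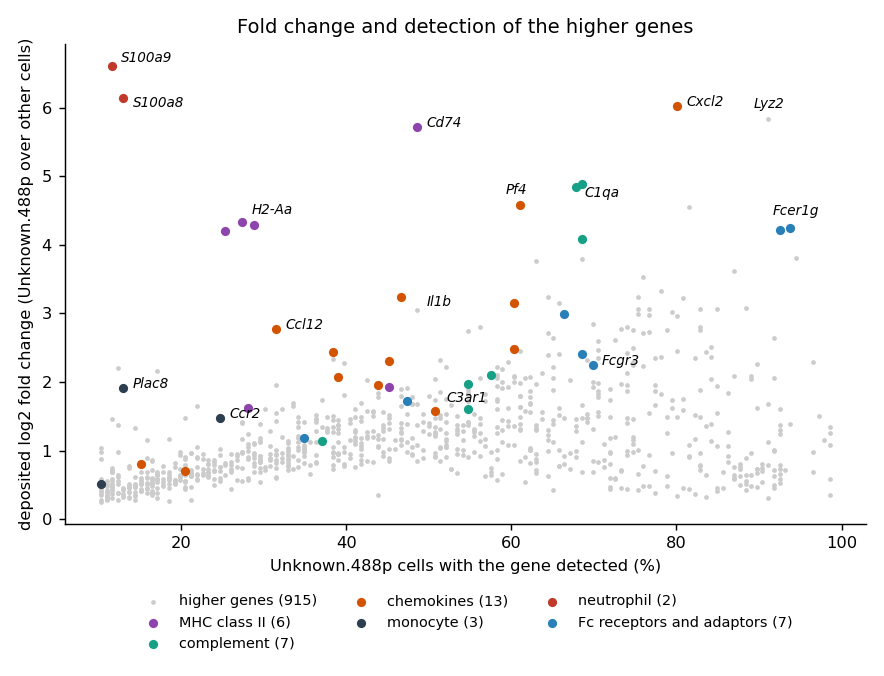
Deposited log2 fold change (vertical axis) of the 915 higher genes against the percentage of Unknown.488p cells in which each was detected (horizontal axis); each point is a gene and colours mark 6 lists. S100a9 and S100a8 combine the largest fold changes with 11.6% and 13% of cells, and 3 MHC class II genes lie above 4 with 25.3 to 28.8% of cells.

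The complement genes split by role. C1q starts the classical complement pathway and tags synapses and debris for removal. Its chain genes were detected in nearly equal shares of Unknown.488p cells in the authors' deposited table, C1qa in 67.8%, C1qb in 68.5% (4.88) and C1qc in 68.5% (4.09). The 3 genes neighbour one another on chromosome 4 in RefSeq. The receptors for complement fragments were higher too, C5ar1 in 57.5% and 0.1% (2.11) and C3ar1 in 54.8% and 0.5% (1.98), as was the regulator properdin (Cfp, 1.14). C3, C2 and C4b had no value for the cluster, so 7 of the 10 complement genes were higher and none lower (median of those listed 2.11). Among all genes in the table these shares were 9.91% and 33.0%.

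The MHC class II genes were detected in a smaller share of Unknown.488p cells than the C1q chains, and the leading class I genes in a larger one. Of 10 MHC class II genes 6 were higher (median of those listed 4.25), and the other 4, among them the class II master regulator Ciita, were in the table for no cluster. The chain genes H2-Aa, H2-Ab1 and H2-Eb1, which neighbour one another on chromosome 17, were detected in 27.4, 28.8 and 25.3% of Unknown.488p cells in the authors' deposited table, against 0.6, 3.1 and 3.0% of other cells, with log2 fold changes of 4.34, 4.29 and 4.21. Their percentages were below that of Cd74 (48.6%) and of H2-DMa, which loads peptides (45.2% and 14.1%, 1.92). MHC class I genes, which nearly all cells express, were higher as well for 5 of 10 members, led by B2m (91.8% and 61.5%, 2.05), H2-D1 (1.68) and H2-K1 (1.62). Both counts stand beside 9.91% of all genes in the table higher.

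Receptors of leukocytes were higher with few exceptions, beside 9.91% of all genes in the table higher and 33.0% lower. Of 8 Fc receptor genes and adaptors 7 were higher, with Fcgr3 detected in 69.9% of Unknown.488p cells and 0.2% of other cells (2.25) and the inhibitory Fcgr2b in 47.3% and 0.1% (1.72) in the authors' deposited table. Of 27 other leukocyte surface receptors 26 were higher and none lower, among them the costimulatory Cd86 (75.3% and 0.1%, 3.06), Cd83 (75.3% and 6.6%, 3.24), Cd52 (64.4% and 0.2%, 3.24), the chemokine receptor Ccr1 (50.7% and 0.1%, 1.73) and the fractalkine receptor Cx3cr1 (45.2% and 6.8%, 1.52). Of 17 pattern recognition genes 12 were higher. Cd14, the co-receptor for bacterial lipopolysaccharide, was detected in 81.5% and 0.8% (4.55), the fatty acid scavenger Cd36 in 63.0% and 0.5% (3.77) and Tlr2 in 41.8% and 0.3% (1.69). Tlr4 (15.8% and 7.0%, 0.62) and its partner Ly96 (18.5% and 9.2%, 0.38) did not pass the filter.

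Inflammatory ligands formed a large group. Of 17 chemokine genes 13 were higher and none lower in the authors' deposited table, with a median log2 fold change of 2.37 over those listed. Over all genes in the table the shares were 9.91% higher and 33.0% lower. Besides Cxcl2, the higher chemokine genes included Ccl4 (46.6% of Unknown.488p cells and 0.1% of other cells, 3.24), Ccl3 (60.3% and 0.5%, 3.15), Ccl12 (31.5% and 0.1%, 2.77), Ccl2 (60.3% and 16.1%, 2.49) and Ccl7 (45.2% and 1.7%, 2.31), which attract monocytes and other leukocytes. Cxcl12 was listed at -1.37 and did not pass the filter. Ccl9, Ccl6, Ccl3 and Ccl4 stand next to one another on chromosome 11, and together with Wfdc17 they made up 1 of 13 runs of 3 or more adjacent protein-coding genes that were all higher, 44 genes in all.

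Of 20 genes of cytokines, their feedback and eicosanoid enzymes 16 were higher and none was lower (median of those listed 0.81). Among all genes in the table, 9.91% were higher and 33.0% lower. In the authors' deposited table Il1b was detected in 48.6% of Unknown.488p cells and 0.1% of other cells (3.05), the inflammasome sensor Nlrp3 in 58.2% and 0.1% (2.21) and Tnf in 31.5% and 0.5% (1.55). The inhibitors of NF-κB signalling Nfkbia (84.2% and 56.0%, 2.04) and Tnfaip3 (54.8% and 9.6%, 1.83) were higher as well, and other cells carried them more often than they carried Il1b or Nlrp3. The antagonist Il1rn (0.87) and the anti-inflammatory Il10 (0.54) were each detected in 10.3% of Unknown.488p cells. Il6, Csf1 and Socs3 had no value for the cluster.

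All 6 genes of the phagocyte NADPH oxidase, which makes superoxide, were higher, led by Cyba (84.9% of Unknown.488p cells and 9.0% of other cells, 3.06) and Cybb (72.6% and 0.3%, 2.62) in the authors' deposited table. Over all genes in the table, 9.91% were higher and 33.0% lower. Of 20 lysosomal genes 15 were higher, with the proteases Ctss (78.1% and 0.6%, 3.32), Ctsc (80.1% and 9.4%, 2.96) and Ctsh (65.1% and 4.1%, 2.05). Ctsl, another cathepsin, was lower (69.9% and 91.3%, -1.72), and Ctsd had no value. Of 13 actin and motility genes 10 were higher, among them Arhgdib (2.72), Lcp1 (2.44) and Cotl1 (2.23). Of 9 genes of iron and haem 7 were higher, including the ferritin chains Ftl1 (96.6% and 89.2%, 2.29) and Fth1 (98.6% and 98.5%, 1.26). Haem oxygenase Hmox1 was also among the 7 (50% and 17.6%, 1.79). Of the clusters given, Ftl1 and Fth1 were detected most often in CGRP-a and Hmox1 in Non-peptidergic neurons.

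Genes of lipid-handling phagocytes were more often higher than lower. Of 17, 10 were higher and 2 lower, beside 9.91% and 33.0% of all genes in the table. The higher ones included Cd36, Lgals3 (61.0% of Unknown.488p cells and 16.4% of other cells, 2.45), Apoe and the cholesterol exporter Abca1 (1.62) in the authors' deposited table. Of the clusters given, Lgals3 was detected most often in the SST cluster, Abca1 in CGRP-a and Apoe in Unknown.2. Cd9 (-2.33) and Fabp5 (-1.52) were lower, and Gpnmb and Cst7, which rise in lipid-laden macrophages and microglia of mice, were in the table for no cluster. Spp1 was detected in 10.3% and 2.1% (1.04).

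Of 17 transcription factor genes of the myeloid lineage 13 were higher (median of those listed 1.34), beside 9.91% of all genes in the table. Spi1 was detected in 78.8% of Unknown.488p cells and 0.2% of other cells (2.75) in the authors' deposited table, Cebpb in 84.2% and 35.8% (2.52), Klf6 in 89.7% and 58.9% (2.27) and Irf8 in 19.9% and 0.8% (0.63). Bhlhe41 was lower (6.8% and 37.2%, -0.33), and Klf4 did not pass the filter (52.1% and 45.6%, 0.51).

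**Figure D4:**
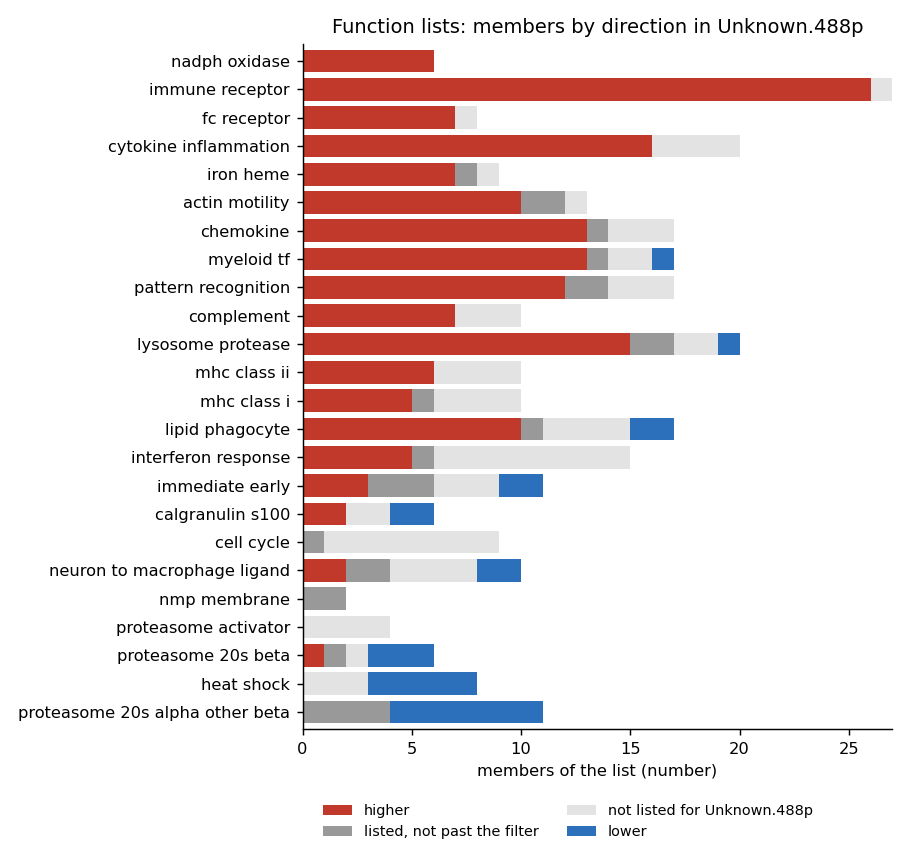
Number of members of each of 24 function lists that were higher, not past the filter, not listed or lower in Unknown.488p (horizontal bars, ordered by higher minus lower as a share of the list). All 6 NADPH oxidase genes and 26 of 27 leukocyte receptors are higher, while 7 of 11 other core subunits of the proteasome and 5 of 8 heat shock genes are lower. Over all genes in the table, 9.91% are higher and 33.0% lower.

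Response genes had members called in both directions, beside 9.91% of all genes in the table higher and 33.0% lower. Of 11 immediate early genes, which dissociation can induce, 3 were higher (Atf3, 0.91; Jund, 0.76; Junb, 0.32) and 2 lower (Egr1, -0.90; Jun, -0.88) in the authors' deposited table, and Fos (61.6% of Unknown.488p cells and 74.7% of other cells, -1.07) did not pass the filter. Of 8 heat shock genes 5 were lower and none higher, led by Hspb1 (8.2% and 66.7%, -2.32). Of 15 interferon response genes 5 were higher, among them Ifi27l2a (1.84) and Ifitm2 (1.75), whereas Isg15 and Ifit1 had no value. Of the 9 proliferation genes 1 was listed, Pcna, which did not pass the filter (44.5% and 43.9%, 0.73), and Mki67 and Top2a were in the table for no cluster. Of 6 S100 genes S100a6 (-1.37) and S100a10 (-1.27) were lower beside the higher S100a8 and S100a9.

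Because cells were sorted on surface β5, the proteasome genes bear on the study's own question. Psmb5 itself was lower, detected in 35.6% of Unknown.488p cells and 69.7% of other cells (-1.14 in the authors' deposited table). The other constitutive catalytic subunits Psmb6 (-0.71) and Psmb7 (-0.65) were lower too, whereas Psmb8, the subunit that replaces β5 in the immunoproteasome, was higher (47.9% and 24.9%, 1.05). Psmb9 did not pass the filter (19.2% and 10.4%, 0.44) and Psmb10 had no value. Of the 11 other core subunits 7 were lower and none higher, beside 33.0% of all genes in the table lower and 9.91% higher. The log2 fold changes of the 11 ranged from -0.98 for Psmb1 to -0.39 for Psma2, which did not pass the filter. The 4 proteasome activator genes had no value. The glycoprotein genes Gpm6a (2.7% and 14.1%, -0.26) and Gpm6b (3.4% and 18.4%, -1.07), which are associated with the membrane proteasome of neurons, did not pass the filter. Transcript levels do not show whether these cells bound the antibody.

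Psmb5 was lower in all 7 clusters named Unknown in the authors' deposited table, and Unknown.488p had the lowest log2 fold change of them; the other 6 ranged from -1.02 to -0.86, with 34.7 to 55.7% of cells. These comparisons share their other cells and so are not independent. In Peptidergic.488p, the other cluster with 488p in its name, Psmb5 was higher (79.2% of cells, 0.39). Psmb8 was higher in Unknown.488p (47.9%), Unknown.1 (46.0%, 0.88) and CGRP-a (79.5%, 0.30), and lower in 7 of the 9 other clusters for which it is given. B2m was detected in 91.8% of Unknown.488p cells (2.05) and 92.1% of Unknown.1 cells (1.56).

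Across clusters, the leading genes differed in how many other clusters the table gave them for. Lyz2, C1qa, C1qc, Tyrobp, Fcer1g, Cd14, Csf1r, Ptprc, Cd74, H2-Aa, S100a8, S100a9, Il1b, Ccl3 and Ccl4 were given for no other cluster in the authors' deposited table. Cxcl2 was given for 1 other, Unknown.6, at 11.3% of cells. Srgn was also frequent in Unknown.1 (89.0%, 2.42), Selenop, a selenium carrier, in Unknown.2 (90.9%, 2.00) and Unknown.1 (85.3%, 1.82), and Apoe in Unknown.2 (all cells, 6.07). Ccl2 was detected in 60.3% of Unknown.488p cells, 60.7% of CGRP-e cells and 53.9% of CGRP-a cells, with log2 fold changes of 2.49, 0.38 and 0.49. The fractalkine receptor Cx3cr1 was higher in Unknown.488p (45.2%), Unknown.1 (23.4%) and Unknown.3 (17.6%).

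**Figure D5:**
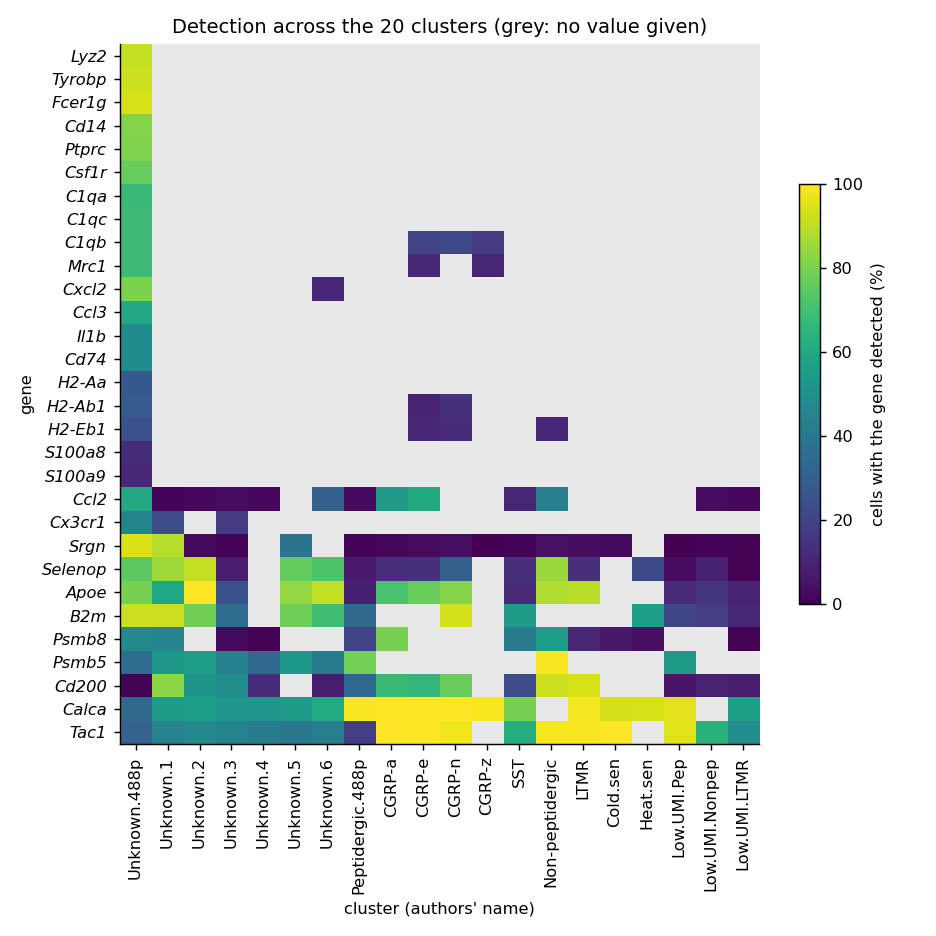
Percentage of cells with each of 30 genes detected (colour, 0 to 100%) in the 20 clusters, Unknown.488p at left; grey marks pairs with no value in the authors' deposited table. The upper genes are given for Unknown.488p and few others, while Srgn, Selenop, Apoe and B2m are also frequent in other clusters, and Calca and Tac1 are lowest in Unknown.488p among the clusters named Unknown.

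Of 10 genes of ligands that act on macrophages, 6 had a value for Unknown.488p. Il34, a ligand of the receptor encoded by Csf1r, was higher in 3 clusters, detected in 29.4% of Unknown.3, 29.1% of Unknown.6 and 26.8% of Unknown.5 cells in the authors' deposited table, and Cx3cl1, the ligand of Cx3cr1, in 25.5% of Unknown.1 cells. Csf1 was given for Unknown.5 alone (20.5%), where it did not pass the filter. These 3 had no value for Unknown.488p. Cd200, which restrains macrophages through their CD200 receptor, was detected in 0.7% of Unknown.488p cells, against 45.9% of other cells (-1.02). Unknown.1 had Cd200 in 82.5% of cells (1.73) and LTMR neurons in 93.9%, where its log2 fold change was below 0 (-0.42). Of the 10 ligand genes 2 were higher in Unknown.488p (Ccl2 and Tgfb1, 1.08) and 2 lower (Cd200 and Tgfb2, -0.47). The shares over all genes in the table were 9.91% higher and 33.0% lower.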

How the data were processed

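The members, gene lists and tests were chosen with earlier results of these data known. The only processed values used were 1 table of cluster markers, of which 0 columns were left out. Per the file headers, the authors deposited, for every pair of gene and cluster, a p-value with its adjusted value and a log2 fold change averaged over cells. They also deposited the fraction of cells in which the gene was found, once for the cluster and once for the remaining cells, printed here as percentages. Seurat is named in the submitters' processing notes. How reads were aligned, counted, filtered and normalized, how cells were clustered and whether doublets were removed are steps not given in the sources used here. No deposited p-value is above 0.01, and the adjusted p-value is the p-value times 32285 wherever this could be checked (50216 pairs).

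Genes were called at an adjusted p-value under 0.05 as a filter across all genes given for the cluster, with no test of the cluster against other cells. The 40 gene lists hold 406 different genes, of which the table has 335, and 27 are in more than 1 list; counts are over all members of a list. The share of cells per cluster was solved by least squares over 6748 genes whose percentages differed by at least 5 points (residual 0.0256 points), a step tested on simulated data. Bounds on computed shares cover the rounding of the deposited fractions only. The genes named were the 4 markers, the 20 of largest log2 fold change among higher genes in at least 25% of the cluster's cells and at least 20 points more frequent than elsewhere, the 5 lowest, at most 8 members of each list with those going the other way, at most 20 in at least 50% of cluster cells and at most 1% of other cells, and proteasome and neuropeptide genes fixed by name; a few further list members were named after their values were seen. Gene neighbours and promoters were taken from RefSeq (GRCm38.p6), in which 888 of the 915 higher genes matched a protein-coding symbol and 711 a promoter. Python 3.11.15, pandas 2.3.3 and numpy 2.4.6 were used. Some list members are not reported here by name.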

Additional observations from a re-analysis of the deposited data

How the results depend on the processing

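Of the main values, the 1.86% share of cells was the same to 2 decimals with a minimum difference of 2 or 20 points. The count of 183 different list genes higher stayed within 1.5 times under all 5 alternatives. Directions could not reverse, since every alternative only filtered the same deposited log2 fold changes. With the size of the log2 fold change set to 0.5 or more, 1677 genes were lower, against 3042 with no such minimum. At a size of at least 1, 464 genes were higher, 540 lower and 255 detected most often in Unknown.488p among the clusters given, against 915, 3042 and 484. With at least 25% of cells on either side, 314 were detected most often there by the same count. Without the adjusted p filter the median computed share of detecting cells was 3.35%, against 5.60% with it. The changed counts follow from fewer genes being counted, and the changed median from more. In the 80 counts by list and direction, 16 moved by over 1.5 times with a size of at least 1, 11 without the filter, 9 at 25% of cells, 2 with a size of at least 0.5 and 0 when fold change and share of cells had to point the same way. The neutrophil and monocyte counts, 2 and 3, both became 0 at 25% of cells, as did those of dendritic (1) and mast cells (1). No paired analysis was possible because the table has no samples and each population was 1 library; no library could be left out for the same reason. Depth per cell and number of cells are unknown.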

Other observations

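Families grouped by gene symbol after their values were seen were also described in Unknown.488p. Of 80 genes of cytosolic ribosomal proteins in the table, 46 were higher and none lower, with a median log2 fold change of 0.59 over the 64 listed and the largest values for Rps29 (1.37) and Rps28 (1.27) in the authors' deposited table. Of 46 genes named Nduf, most of them subunits and assembly factors of respiratory complex I, 37 were lower and none higher. Ndufa11, for example, was detected in 34.9% of Unknown.488p cells and 71.7% of other cells (-1.48). Of 92 sodium, calcium and potassium channel genes 49 were lower and 1 was higher. That gene was Kcnk13, a potassium channel found in mouse microglia, detected in 47.9% of Unknown.488p cells and 14.7% of other cells (1.68). Among the 5 clusters for which it was given, Kcnk13 was detected most often in Non-peptidergic neurons. Of 13 tubulin genes 9 were lower, down to -3.06 for Tuba1a, and 2 were higher, Tubb6 (52.7% and 6.6%, 1.66) and Tuba1c (50.7% and 11.4%, 1.35). Of 19 genes of the proteasome cap 13 were lower and none higher, led by Psmc5 (-1.12). All 6 listed of 7 Ms4a genes and all 9 listed of 15 Clec genes were higher. These shares stand beside 9.91% of all genes higher and 33.0% lower.

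A few genes were picked after their values were seen and stand for no group. In the authors' deposited table, genes that serve the synthesis of lipid mediators included Alox5ap in 70.5% of Unknown.488p cells and 2.5% of other cells (2.59), Hpgds in 43.8% and 1.0% (1.79), Tbxas1 in 41.8% and 2.1% (1.43) and Ltc4s in 30.8% and 0.1% (1.29). Acod1, which makes itaconate, was detected in 12.3% of Unknown.488p cells and listed at 0.0% of other cells (2.21). The cystine transporter Slc7a11 was detected in 39.7% and 2.9% (2.27).

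In the authors' deposited table C1qb was detected in 21.1% of CGRP-n, 20.2% of CGRP-e and 17.8% of CGRP-z cells, where its log2 fold changes were below 0 (-0.58, -0.60 and -0.58), and C1qa and C1qc were not given for these clusters. C1qa was in 0.3% of all cells outside Unknown.488p. The cluster shares put an upper limit of 7.49% on C1qa and of 5.35% on C1qc in CGRP-e cells, reached if all other cells with the gene lay there. In CGRP-n cells these limits were 9.07% and 6.48%. In CGRP-z cells they were 25.2% and 18%, above the 17.8% of C1qb. In Unknown.488p the percentages of the 3 chains lay between 67.8 and 68.5%. H2-Ab1 and H2-Eb1 were detected in 14.1% and 12.8% of CGRP-n cells, where H2-Aa was not given and its computed upper limit was 16.8%, above both. Mrc1 was detected in 11.1% of CGRP-e cells (-0.29). The cause of these values was not tested.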
